A study of Mus musculus with 6 samples.

Results

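Transcripts of 10 genes of mast cells, basophils and eosinophils were examined in hematopoietic stem cells (HSCs) of the mouse fetal liver that had or lacked Dpy30. The genes were taken by name from the deposited count tables, and all 10 were present among the 38926 features listed. They are Cpa3, Mcpt8, Prss34, Gzmb, Ms4a2, Fcer1a, Hdc, Epx, Prg2 and Tpsb2. The series holds 6 poly(A) RNA sequencing libraries from E14.5 embryos, 1 control and 1 knockout from each of 3 litters. Control embryos had the genotype Vav-Cre; Dpy30F/+, so they carried the Cre transgene, 1 floxed allele and 1 wild-type allele. Knockout embryos were Vav-Cre; Dpy30F/-, with the same transgene, 1 floxed allele and 1 null allele. Every library thus came from embryos with Vav-Cre, whose Cre is driven by Vav regulatory elements throughout the blood lineages, and control cells that had recombined kept a single working allele. The labels do not say which surface markers were sorted on or whether embryos of a litter were pooled. Dpy30 is a shared core subunit of the SET1/MLL complexes that methylate histone H3 at lysine 4.

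Mast cells and basophils are granulated effector cells of allergy and parasite defence. Both carry the high-affinity IgE receptor, store histamine and secrete granule proteases, and eosinophils store a different set of toxic basic proteins. All of them descend from HSCs through progenitors in which GATA and C/EBP factors guide the choice of lineage, and low transcription of some granule genes can be detected in progenitors before the mature cells form. In bulk RNA, a small number of cells with much of a transcript cannot be told apart from many cells with little of it.

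The regions just upstream of the transcription start are shown for the 3 genes with enough counts to be tested and for Ms4a2, which had the most GATA motifs of the group. Capitals mark the GATA motif, searched on both strands as GATA with A or T before it and A or G after it. Each window runs 5′ to 3′ on the gene's strand from 250 bases before to 50 bases after the RefSeq start in build GRCm38.p6, and all 4 genes lie on the minus strand. They are chr3:20242132-20242431 for Cpa3, chr2:126618629-126618928 for Hdc, chr14:56085148-56085447 for Mcpt8 and chr19:11623670-11623969 for Ms4a2.
Cpa3: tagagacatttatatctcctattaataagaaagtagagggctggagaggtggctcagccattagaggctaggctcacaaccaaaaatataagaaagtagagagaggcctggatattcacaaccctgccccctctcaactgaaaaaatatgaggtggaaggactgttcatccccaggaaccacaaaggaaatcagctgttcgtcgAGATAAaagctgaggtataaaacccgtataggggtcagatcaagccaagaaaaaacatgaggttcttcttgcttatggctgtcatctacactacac
Hdc: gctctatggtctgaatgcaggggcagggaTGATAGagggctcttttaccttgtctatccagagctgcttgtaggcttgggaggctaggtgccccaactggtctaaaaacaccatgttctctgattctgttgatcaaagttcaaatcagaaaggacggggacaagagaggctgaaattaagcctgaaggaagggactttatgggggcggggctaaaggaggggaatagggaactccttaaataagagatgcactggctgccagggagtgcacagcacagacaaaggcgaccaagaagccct
Mcpt8: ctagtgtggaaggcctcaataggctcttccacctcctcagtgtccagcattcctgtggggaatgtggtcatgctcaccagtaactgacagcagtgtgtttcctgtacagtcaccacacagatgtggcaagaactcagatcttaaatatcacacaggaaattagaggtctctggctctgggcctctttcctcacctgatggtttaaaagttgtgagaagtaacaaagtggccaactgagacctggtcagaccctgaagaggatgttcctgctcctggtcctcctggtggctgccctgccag
Ms4a2: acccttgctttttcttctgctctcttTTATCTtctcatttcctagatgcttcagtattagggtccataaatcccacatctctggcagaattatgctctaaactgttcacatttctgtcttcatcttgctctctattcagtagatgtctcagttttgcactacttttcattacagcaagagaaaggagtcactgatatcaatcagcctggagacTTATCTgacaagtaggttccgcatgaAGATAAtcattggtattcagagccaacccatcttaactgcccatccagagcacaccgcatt
RefSeq promoter windows were matched for 8 of the 10 genes. Of these, 5 held at least 1 GATA motif (Cpa3, Prss34, Ms4a2, Fcer1a and Hdc), where 29.8% of all 32851 promoter windows did. The match in Cpa3 began 46 bases before the start, that in Prss34 31 bases before it, and those in Ms4a2 224, 37 and 11 bases before it. The C/EBP motif TTGCNNAA, also searched on both strands, was found in the Fcer1a window alone of the 8, and in 10.8% of all windows. Of the genes with a GATA match, Cpa3 had counts in 6 libraries, Hdc in 5, Prss34 and Ms4a2 in 1 each and Fcer1a in 0. Of those without a match, Mcpt8 had counts in 3, Gzmb in 1 and Epx in 0. A link between motif and detection was not tested.

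Libraries held 31897737 to 43394700 counts in genes, of which 45.2% to 61.7% fell on the mitochondrial ribosomal RNAs mt-Rnr1 and mt-Rnr2. Levels are given as CPM, the count relative to a library total of 1000000 after TMM scaling (trimmed mean of M values). A gene with 0 counts could have had a level of up to 3 counts, which is 0.0680 to 0.104 CPM depending on the library. Dpy30 itself averaged 26.8 ± 4.20 CPM in the control libraries and 9.18 ± 3.999 CPM in those of the knockouts (SD, n = 3 each). Every knockout was below every control, as for 7.74% of all tested genes. HSC genes were well represented, with 15 of 15 listed markers tested and a summed level of 998.8 to 1068 CPM in controls. The erythroid markers were also present, with a summed level of 396 to 881 CPM in controls and 195 to 545 CPM in knockouts. The library of knockout 3 stood apart: its HSC marker sum was 410 CPM against 1235 and 1432 in knockouts 1 and 2, and its neutrophil marker sum was 530 CPM against 66.5 to 157 in the other 5 libraries. Results that rest on knockout 3 are therefore also given without it.

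Of the 10 transcripts, 7 had counts in at least 1 library. The tryptase gene Tpsb2, the IgE receptor alpha chain gene Fcer1a and the eosinophil peroxidase gene Epx had 0 counts in all 6 libraries, and Prss34, Gzmb and Ms4a2 had counts in 1 library each. Cpa3 was the only one detected in every library. Of the 60 combinations of gene and library, 41 were at 0 counts, 20 of 30 in controls and 21 of 30 in knockouts. Each library had counts for 2 to 4 of the genes. Genes with 0 counts in at least 1 library were common in these data. Among the 9502 genes whose mean count lay in the range of the 7 detected members (1.83 to 231.8 counts), 64.1% had such a 0. Of the 7 members, 6 did. That share covers any 0, and the share of genes with counts in 1 library alone was not computed.

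**Figure D1:**
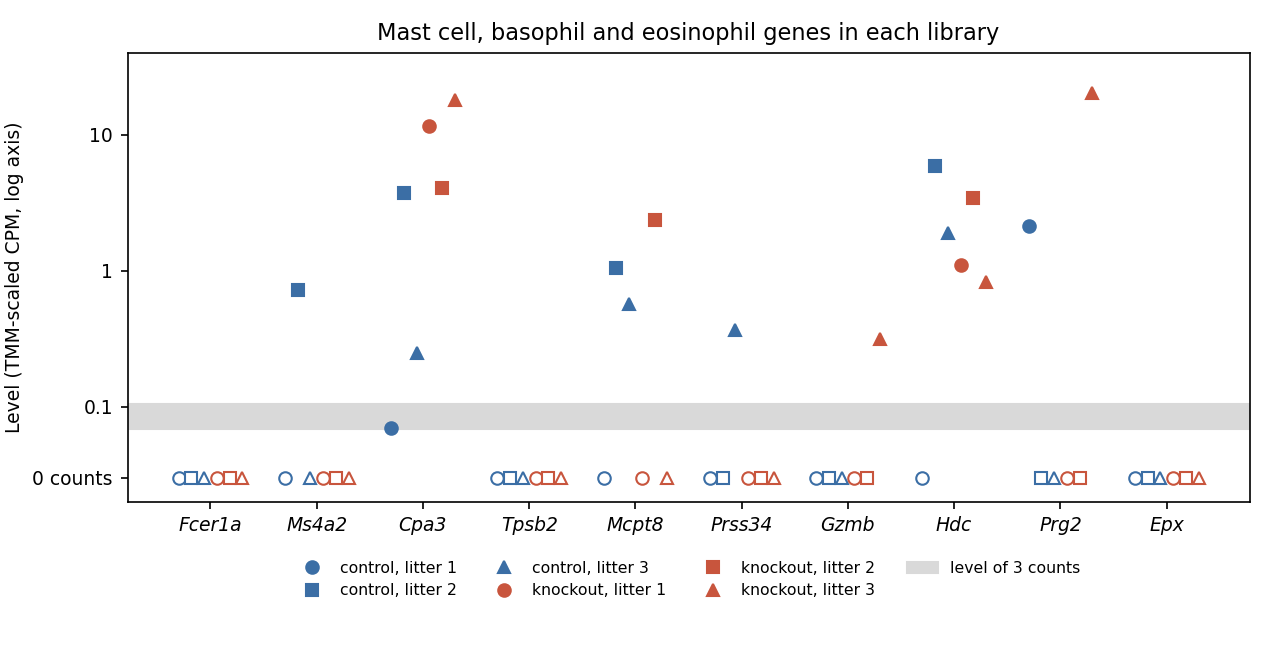
Level of each of the 10 genes in each library, in TMM-scaled CPM on a log axis, with colour for genotype and symbol for litter. Open symbols at the bottom are libraries with 0 counts and the grey band is the level of 3 counts (0.0680 to 0.104 CPM). Only Cpa3 has a filled symbol for all 6 libraries.

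In edgeR's quasi-likelihood test of knockout against control, 3 of the 10 genes had enough counts to be tested (Cpa3, Hdc and Mcpt8) and 0 of them passed an adjusted p of 0.05. None had an unadjusted p under 0.05 in that test. Among all 13646 genes tested, 0 passed (0%) and 888 (6.51%) had an unadjusted p under 0.05. DESeq2 without litter also called 0 of the 3, against 1.03% of all genes. Dpy30 itself passed in neither (log2 fold change -1.55, SE 0.46, edgeR adjusted p = 0.672, DESeq2 adjusted p = 0.131).

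The IgE receptor genes come first among the roles. The receptor binds IgE through its alpha chain, encoded by Fcer1a, while the beta chain, encoded by Ms4a2, amplifies the signal, and the gamma chain, encoded by Fcer1g, is shared with other Fc receptors. Fcer1a (chromosome 1, 173221284 to 173227214, GRCm38) had no counts. Ms4a2 (chromosome 19, 11615523 to 11623719) had 27 counts in control 2, or 0.722 CPM, and 0 in the other 5 libraries. No library had counts for both of these chains.

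Counts of Fcer1g were 548, 391 and 248 in controls 1 to 3, against 1240, 2477 and 6433 in knockouts 1 to 3. Every knockout was above every control, as for 6.39% of all tested genes. The means were 11.7 ± 6.73 and 94.4 ± 79.6 CPM (SD, n = 3 each), a log2 fold change of 3.02 (SE 0.72, edgeR adjusted p = 0.622). DESeq2 called it (adjusted p = 0.000777), in a fit that called 1.03% of all genes. Without knockout 3 the edgeR log2 fold change was 2.10. Macrophages also express this gamma chain, and 10 of the 11 tested macrophage markers had positive log2 fold changes. None of the 12 macrophage markers was at 0 in all libraries. Their sum was 306 to 465 CPM in controls and 631, 259 and 1073 CPM in knockouts 1 to 3. Mrc1, the highest of them on average, was at 180, 359 and 196 CPM in controls. In knockouts 1 to 3 it was at 309, 26.4 and 366 CPM. For 4 of the 11 tested (C1qb, Cd68, Csf1r and Timd4), every knockout was above every control, as for 6.39% of all tested genes. DESeq2 called C1qb and Csf1r (adjusted p = 0.00214 and 0.00759), with 1.03% of all genes called. The median log2 fold change of the 11 was 1.76, or 1.29 without knockout 3. The part of macrophages in the Fcer1g difference was not tested.

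Cpa3 (chromosome 3, 20215620 to 20242181) encodes the carboxypeptidase stored in mast cell granules, and its transcript is also known from early hematopoietic progenitors. Its counts were 2, 139 and 11 in controls 1 to 3, against 464, 148 and 627 in knockouts 1 to 3. In CPM these were 0.0691, 3.72 and 0.249 against 11.7, 4.08 and 17.9. Knockouts 1 and 3 lay well above every control, while knockout 2 lay just above control 2. The means were 1.35 ± 2.06 and 11.2 ± 6.93 CPM (SD, n = 3 each), a ratio of 8.34. On the log2 scale the fold change came to 3.06 (SE 1.42, edgeR adjusted p = 0.775). The exact permutation test gave p = 0.1 (two-sided, n = 3 each), the smallest value that 3 against 3 allows. The difference did not pass the test.

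The groups of Cpa3 values did not overlap, as was the case with the knockouts higher for 6.39% of all tested genes and with the knockouts lower for 7.74%. No other member had groups apart. The separation was narrow. The lowest knockout was 1.10 times the highest control under TMM, 1.03 times with library size only and 1.05 times with upper-quartile scaling. The 95% exact Poisson intervals, which cover counting error only, were 3.13 to 4.39 CPM in control 2 and 3.45 to 4.79 CPM in knockout 2, and these overlap. Leaving out knockout 3 gave a log2 fold change of 2.55 (SE 1.54, edgeR adjusted p = 0.746). Leaving out control 2 gave 6.08 (SE 1.36, edgeR unadjusted p = 0.00296, adjusted p = 1.00). In that fit 0 genes passed, and 624 of 14412 had an unadjusted p under 0.05.

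Within litters, the log2 change of Cpa3 was 6.57, 0.13 and 5.89 in litters 1 to 3, so the knockout was higher in 3 of 3 litters, but by an amount that counting error covers in litter 2. Adding litter as a block gave a log2 fold change of 5.01 (SE 2.14) with an edgeR adjusted p of 0.953. DESeq2 with litter as a block called Cpa3, at a log2 fold change of 5.10 with SE 1.20 (DESeq2 adjusted p = 0.00345), in a fit that called 2.16% of all genes. That call was lost without litter 1 (log2 fold change 3.14, DESeq2 adjusted p = 0.365) and without litter 3 (3.56, adjusted p = 0.365), and was kept without litter 2 (6.70, adjusted p = 5.67e-06).

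**Figure D2:**
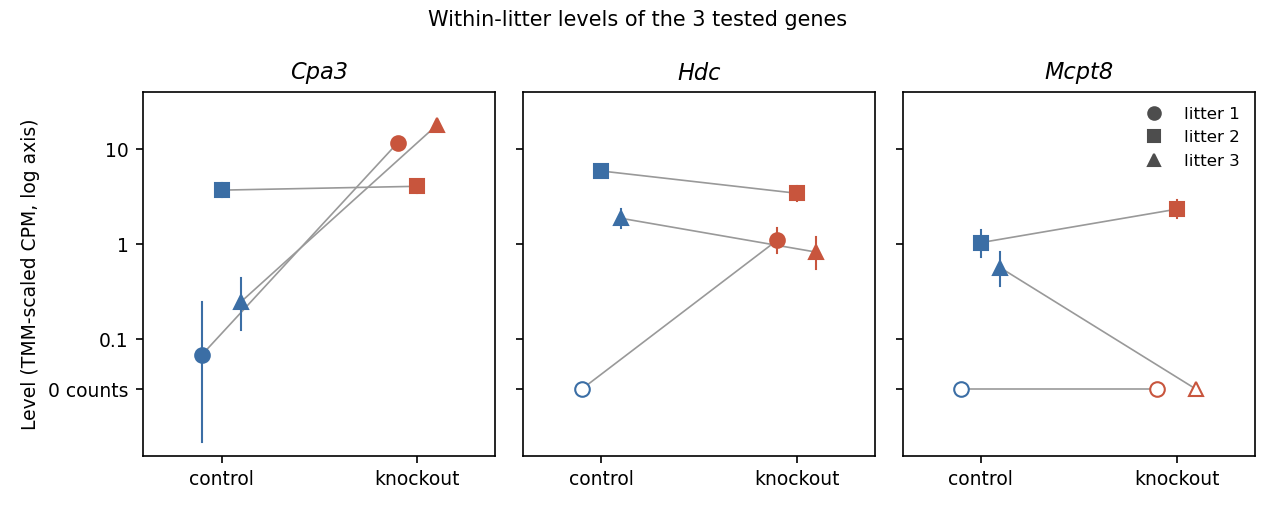
Levels of Cpa3, Hdc and Mcpt8 in control and knockout, in TMM-scaled CPM on a log axis, with a line joining the libraries of each litter. Vertical bars are 95% exact Poisson intervals, and open symbols are libraries with 0 counts. The line for Cpa3 is steep in litters 1 and 3 and nearly flat in litter 2 (3.72 and 4.08 CPM), while those for Hdc and Mcpt8 point in different directions in different litters.

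The other granule proteases were sparse. Mcpt8 (chromosome 14, 56082166 to 56085273) encodes a protease that marks mouse basophils. Its counts were 0, 39 and 25 in controls 1 to 3, against 0, 85 and 0 in knockouts 1 to 3, so that litter 1 had none in either genotype. The means were 0.537 ± 0.522 and 0.781 ± 1.35 CPM (SD, n = 3 each; log2 fold change 0.53, SE 2.33, edgeR adjusted p = 0.986). The single knockout with counts, at 2.34 CPM, was higher than any control, and the other 2 knockouts were at 0, which allows up to 0.0755 and 0.0857 CPM. With litter as a block the sign turned, to a log2 fold change of -1.60 (edgeR adjusted p = 0.984).

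Prss34 (chromosome 17, 25298394 to 25300165), another basophil protease gene, had 16 counts in control 3 (0.363 CPM) and 0 elsewhere. Tpsb2 (chromosome 17, 25366305 to 25369098), a mast cell tryptase gene that lies 66.1 kb from Prss34, had none. Tpsb2 has a close copy in Tpsab1, and the tables tally reads aligned to more than 1 place apart from the genes, so its 0 is uncertain. Tpsab1 was also at 0 in all libraries.

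Gzmb (chromosome 14, 56258838 to 56262260) lies 173.6 kb from Mcpt8 and encodes granzyme B, a protease of cytotoxic lymphocytes that some mast cells also make. It had 11 counts in knockout 3 (0.314 CPM) and 0 in the other 5 libraries. The cytotoxic genes Prf1, Gzma and Gzmc and the T cell genes Cd3d, Cd3e and Cd3g were at 0 in all 6 libraries. The listed cytotoxic gene with the highest level was Nkg7, a granule membrane gene, whose counts were 0, 0 and 8 in controls 1 to 3, against 43, 314 and 494 in knockouts 1 to 3. All knockouts were above all controls for Nkg7 (log2 fold change 6.89, SE 1.89, edgeR adjusted p = 0.642, DESeq2 adjusted p = 0.00111), and without knockout 3 the log2 fold change was 6.20. Groups were apart in this direction for 6.39% of all tested genes, and DESeq2 called 1.03% of all genes. The other tested gene of this list, Klrb1c, had 0, 0 and 125 counts in controls and 86, 255 and 0 in knockouts, so its groups overlapped.

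Hdc (chromosome 2, 126593667 to 126619299) encodes histidine decarboxylase, the enzyme that makes histamine. Its counts were 0, 221 and 83 in controls 1 to 3, against 44, 125 and 29 in knockouts 1 to 3. Control 1 was the lowest library and control 2 the highest, with all knockouts between them. The means were 2.60 ± 3.02 and 1.79 ± 1.44 CPM (SD, n = 3 each; log2 fold change -0.53, SE 1.70, edgeR adjusted p = 0.977). Within litters the log2 change was 4.42, -0.77 and -1.13, and the fit blocked by litter gave a log2 fold change of 0.51 (edgeR adjusted p = 0.998). Hdc had no common direction over the litters.

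Of the eosinophil granule genes, Prg2 (chromosome 2, 84980461 to 84983632) encodes major basic protein. It had 62 counts in control 1 (2.14 CPM) and 713 counts in knockout 3 (20.4 CPM), the highest level that any of the 10 genes reached, and 0 counts in the other 4 libraries. It was not tested, and the exact permutation test of its CPM gave p = 1 (two-sided, n = 3 each). Without knockout 3 it was left with counts in a control alone. Epx (chromosome 11, 87864000 to 87875536), which encodes the peroxidase of the same granules, had 0 counts in both libraries that held Prg2. Prg3, a close relative of Prg2, had 3 counts in knockout 3 and none elsewhere.

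The summed level of the 10 genes was 2.21, 11.4 and 3.06 CPM in controls 1 to 3 and 12.8, 9.87 and 39.4 CPM in knockouts 1 to 3. The groups overlapped, since control 2 was above knockout 2. Different genes made up the sum in each library. Cpa3 was 91.3% of it in knockout 1 and 41.3% in knockout 2, Prg2 was 96.9% of it in control 1 and 51.7% in knockout 3, and Hdc was the largest part in controls 2 and 3.

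**Figure D3:**
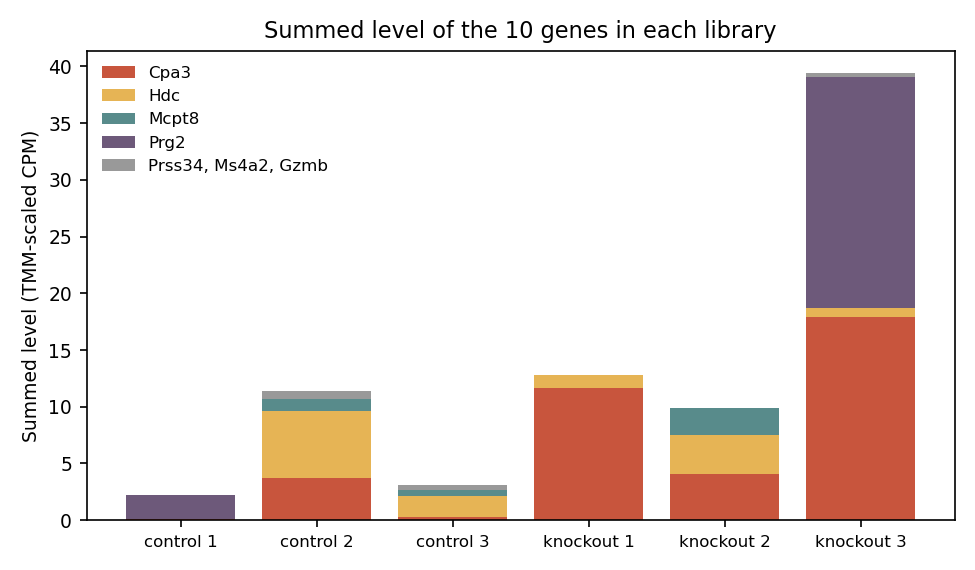
Summed level of the 10 genes in each library, in TMM-scaled CPM, with each bar divided by gene. The bars run from 2.21 CPM in control 1 to 39.4 CPM in knockout 3, where Prg2 and Cpa3 hold nearly all of the sum.

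Divided by exon length, the order of the mean levels in controls was Cpa3 at 0.887 ± 1.36, Prg2 at 0.852 ± 1.48, Mcpt8 at 0.538 ± 0.523 and Hdc at 0.407 ± 0.473 CPM per kb (SD, n = 3), followed by Prss34 at 0.0992 ± 0.172 and Ms4a2 at 0.0856 ± 0.148. No neighbours in this order differed by more than their spread. In knockouts Prg2 was at 8.10 ± 14.0 and Cpa3 at 7.40 ± 4.57 CPM per kb, ahead of Mcpt8 at 0.782 ± 1.36, Hdc at 0.281 ± 0.225 and Gzmb at 0.0729 ± 0.126 (SD, n = 3). Prg2 and Gzmb had 0 counts in knockouts 1 and 2, so their places rest on knockout 3. The mean over knockouts 1 and 2 was 5.19 for Cpa3, 1.17 for Mcpt8 and 0.356 CPM per kb for Hdc. Of the neighbours over all 3 knockouts, Cpa3 and Mcpt8 were separated by more than the spread of either.

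Pearson correlations of log2 CPM were 0.53 between Cpa3 and Hdc, 0.73 between Mcpt8 and Hdc and -0.05 between Cpa3 and Mcpt8, given as a description over 6 libraries that share litters and genotypes. Among 9018 other genes with a mean of at least 5 CPM, those most like the average of the 3 were Acsl4 (r = 0.985), Rrp9 (0.968), Atad2b (0.964), Slc15a3 (0.963), Ostf1 (0.960), Exo5 (0.957), Zfp81 (0.954), Car1 (0.952), Isoc1 (0.951) and Pepd (0.947). The nearest single gene was Mapk3 for Cpa3 (0.988), Tmppe for Mcpt8 (0.991) and Rrp9 for Hdc (0.970). None of these belonged to the lists of mast cell, basophil or eosinophil genes.

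In a list of 20 further mast cell and basophil genes, 10 were at 0 in all libraries, among them the chymase and protease genes Cma1, Mcpt1, Mcpt4 and Mcpt9, the mast cell receptor gene Mrgprb2 and the cytokine gene Il13. Of the 6 tested, 0 passed in either direction, with a median log2 fold change of -0.03 (0.23 with library size only) beside 0.01 for all tested genes (0.23 with library size only). Mcpt2, a mucosal mast cell protease gene, had 78 counts in knockout 1, 1 in knockout 3 and 0 in the other libraries. Il4, a cytokine gene that basophils transcribe, gave 1, 45 and 19 counts for controls 1 to 3, against 2, 0 and 2 for the knockouts. The basophil receptor gene Cd200r3 had 7, 35 and 54 counts in controls and 58, 19 and 0 in knockouts. The genes with the highest levels in this list, such as the vesicular monoamine transporter gene Slc18a2 at 25.6 ± 18.9 and 22.1 ± 10.6 CPM (SD, n = 3 each), are not specific to these cells.

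Of 10 further eosinophil genes, Ear1 and Ear6 were at 0 everywhere, 5 could be tested, 0 passed in either direction, and the median log2 fold change was 1.45. Il5ra, the gene of the interleukin-5 receptor that eosinophils depend on, had 1 count in all libraries together. Ccr3, the eotaxin receptor gene, gave 0, 18 and 0 counts for controls 1 to 3, against 161, 6 and 10 for the knockouts. All 5 tested genes had positive log2 fold changes, 1 of them at an unadjusted p under 0.05 in edgeR. Without knockout 3 the median was 1.42, but Alox15 and Ear2 turned negative, to -7.98 and -0.81, and the rest stayed positive. Alox15 had 2, 52 and 47 counts in controls 1 to 3, against 0, 0 and 156 in the knockouts. Its value without knockout 3 thus sets 0 counts against the controls, and the size is no bound. The list summed to 3.83 to 5.51 CPM in controls and 8.07 to 17.4 CPM in knockouts. For 2 of the 5, every knockout was above every control, as for 6.39% of all tested genes. Siglecf, the gene of an eosinophil surface lectin that the tables list under its older symbol Siglec5, had 0 counts in all 3 controls and 18, 68 and 67 counts in knockouts 1 to 3 (edgeR adjusted p = 0.622, DESeq2 adjusted p = 0.0955). Siglece, an inhibitory receptor gene also found on neutrophils and macrophages, was at 3.16 ± 0.65 against 8.60 ± 3.01 CPM (SD, n = 3 each; log2 fold change 1.45, SE 0.71, edgeR adjusted p = 0.792).

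Of 10 genes of growth factor and cytokine receptors that act in these lineages, 7 were tested. Kit, the stem cell factor receptor gene needed by both HSCs and mast cells, was at 194 ± 21.4 and 172 ± 50.4 CPM (SD, n = 3 each; edgeR adjusted p = 0.945). Of those 7, 0 passed, 3 had positive log2 fold changes and the median was -0.08, or 0.20 with library size only. Those 3 were also the genes whose knockouts lay entirely above the controls, as for 6.39% of all tested genes. Il1rl1, the interleukin-33 receptor gene of mast cells and basophils, was at 6.43 ± 1.96 against 24.1 ± 11.4 CPM (SD, n = 3 each; log2 fold change 1.91, SE 0.54, edgeR adjusted p = 0.663). Without knockout 3 the log2 fold change of Il1rl1 was 1.94. Csf2rb and Csf2rb2, which encode the beta chains used by interleukin-3, interleukin-5 and GM-CSF receptors, had log2 fold changes of 1.56 and 1.28 (edgeR adjusted p = 0.750 and 0.691), and 0.48 and 0.81 without knockout 3. The alpha chain gene Il3ra gave 34, 43 and 5 counts for controls 1 to 3, against 2, 0 and 0 for the knockouts, too few to be tested.

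Among 14 transcription factor genes of these lineages, 13 were tested and 0 passed. The median log2 fold change was 0.37, or 0.24 without knockout 3, beside 0.01 for all tested genes. Of the 13, 10 were positive. The share of positive values over all tested genes was not computed, here or for the other lists. Gata2, which is required in HSCs and in mast cell and basophil formation, had 32.0, 30.1 and 31.0 CPM in controls 1 to 3 and 35.9, 74.7 and 45.3 CPM in knockouts 1 to 3. All knockouts were above all controls, with a log2 fold change of 0.74 (SE 0.34, edgeR adjusted p = 0.775). Of the 13 tested, 2 had their groups apart in this direction, Gata2 and Id2, as did 6.39% of all tested genes. Cebpa, which directs progenitors to granulocytes, had 17, 9 and 47 counts in controls and 1, 300 and 499 in knockouts, so knockout 1 was below every control. Mitf, a mast cell regulator, had 71, 44 and 107 counts in controls and 30, 85 and 907 in knockouts. The highest Mitf and Cebpe counts were both in knockout 3, where Cebpe, a late granulocyte factor gene, had 131 counts.

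Below the IgE receptor, 13 of 14 signalling genes were tested, 0 passed in edgeR and 11 had positive log2 fold changes. The median was 0.31, or 0.34 over 14 genes without knockout 3. Apart from Fcer1g, the knockouts lay above the controls for the kinase gene Syk, at 21.6 ± 4.75 against 48.7 ± 7.45 CPM (SD, n = 3 each; log2 fold change 1.17, SE 0.32, edgeR adjusted p = 0.642), and for the adaptor gene Lcp2, at 44.4 ± 7.87 against 66.5 ± 13.0 CPM (log2 fold change 0.58, SE 0.28, edgeR adjusted p = 0.775). Neither passed, and 6.39% of all tested genes had their groups apart in this direction. Of 12 genes of granule storage and mediator synthesis, 10 were tested, 0 passed and the median was 0.49. Srgn, which encodes the granule proteoglycan serglycin, was at 46.1 ± 3.76 against 71.8 ± 11.9 CPM, and Ptgs1, a prostaglandin synthase gene, at 46.7 ± 8.86 against 78.4 ± 13.0 CPM (SD, n = 3 each; edgeR adjusted p = 0.751 and 0.729). Both had all knockouts above all controls, as for 6.39% of all tested genes. These genes are used by many blood cells.

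Markers of other cells also varied across the libraries. The neutrophil list, of which 9 of 13 genes were tested, summed to 66.6, 66.5 and 125 CPM in controls 1 to 3 and 79.7, 157 and 530 CPM in knockouts 1 to 3. Its 9 tested genes all had positive log2 fold changes, with a median of 2.47, or 0.92 without knockout 3, and Ly6g, the defining surface marker of mature neutrophils, was at 0 throughout. Knockout 3 thus held the highest neutrophil sum, the highest macrophage sum and the highest Cpa3 and Prg2 levels. Knockout 1, with the second highest Cpa3 level, had a neutrophil sum within the range of the controls. Of that list, Mpo and Elane were also within the control range in knockout 1. S100a8 (18.1 CPM, against 1.35 to 7.12 in controls) and Lcn2 (6.09 CPM, against at most 5.04) were above every control. The macrophage sum of knockout 1 was 631 CPM, above every control (306 to 465 CPM). Knockout 2, with the lowest Cpa3 level of the knockouts, had a neutrophil sum above every control. Its macrophage sum of 259 CPM was below every control. Within that sum, Mrc1 was at 26.4 CPM in knockout 2 against 180, 359 and 196 CPM in controls 1 to 3. C1qb, Cd68, Csf1r and Timd4 were above every control in knockout 2, and Marco was within the range of the controls. The part of such cells in the Cpa3 and Prg2 values was not tested.

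**Figure D4:**
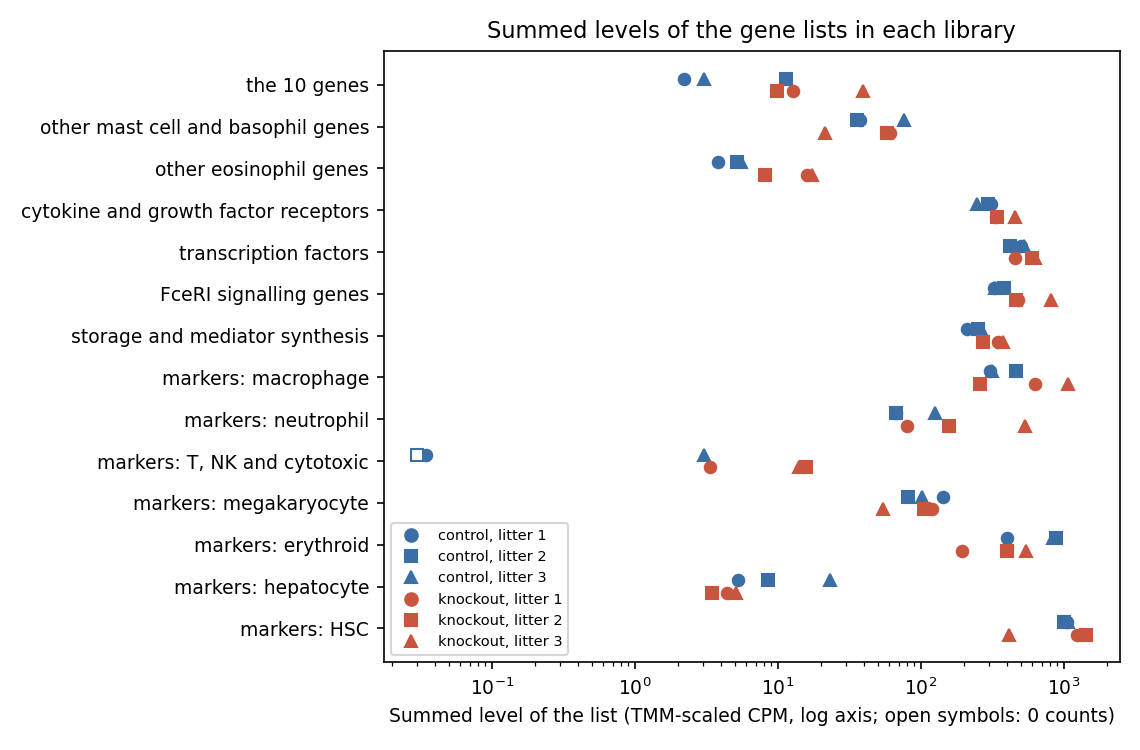
Summed level of each gene list in each library, in TMM-scaled CPM on a log axis, with colour for genotype and symbol for litter. The open symbol, drawn at the left edge, is a library with 0 counts over the list. The 10 genes sum to 2.21 to 39.4 CPM, far below the receptor, transcription factor and HSC lists, and knockout 3 has the lowest HSC sum (410 CPM) and the highest neutrophil sum (530 CPM).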

How the data were processed

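The authors deposited raw counts per gene symbol for each library, and the submitters' processing notes name TopHat2, HTSeq 0.6.0, Picard 1.126 and build mm10, among other tools, with no roles. The annotation and strandedness are not given in the sources used here. Tallies of reads given to no gene, 41.0% to 51.0% of reads, were left out. Groups follow the genotype labels and replicate numbers the litter labels.

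Genes were kept by edgeR's filterByExpr (minimum count 10), scaled by TMM and tested with glmQLFit and glmQLFTest (edgeR 4.0.16, R 4.3.3) without litter, with Benjamini-Hochberg adjustment over all tested genes and a threshold of 0.05. The SE of a fold change is its log2 value, without sign, divided by the square root of edgeR's F. Log2 CPM used a prior count of 2. Single genes were also compared by exact permutation, which cannot go below p = 0.1 here. Litters pair the libraries by the labels, although correlations of same-litter deviations from the group means were -0.02, -0.08 and 0.003. DESeq2 1.42.0 and limma-voom (limma 3.58.1) were alternatives.

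The 10 genes and the lists were chosen with earlier results of these data known. Genes named from the lists were drawn by a rule. It took the 3 with the highest mean CPM and up to 4 with at least 5 CPM whose groups did not overlap. Not every gene that met this rule was described. Tal1, Zfpm1, Runx1, Lyn, Ctsc, Ifitm1 and Cd63, all with overlapping groups, were among those left out. So were marker genes with groups apart, such as Pf4, Afp and Ppbp. Mcpt2, Il4, Cd200r3, Prg3, Ear2, Siglecf, Il5ra, Il3ra, Cebpa, Cebpe, Mitf and the genes at 0 were named after their values were seen. Symbols were matched for 158 of 159 listed genes, 3 of them by an older symbol. Coordinates and exon lengths are from GENCODE M21 (GRCm38), and promoters from RefSeq. No molecular tags are described, so intervals cover counting error only.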

Additional observations from a re-analysis of the deposited data

How the results depend on the processing

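The alternatives were planned, except DESeq2 with a block leaving out a litter, which was added after the data were seen. The count of genes past the threshold, 0, became 1 without a filter on low counts, 1 with at least 10 counts in every sample, 138 with DESeq2 and 277 with DESeq2 and the replicate block, and stayed at 0 under the other settings, leaving out each library included (range 0 to 0). The count of members past it became 1 (Cpa3) with DESeq2 and the replicate block, and 1 again in that fit without litter 2. It was 0 under the other settings, and could not be had with at least 10 counts in every sample, where no member was left. In edgeR with the replicate block, the pairing by litter, 0 genes passed, with 619 at an unadjusted p under 0.05. Cpa3 kept a positive log2 fold change in all 18 alternatives, from 2.50 without control 1 to 6.70. Hdc turned positive with the block (0.51), with DESeq2 and the block (0.56) and with limma-voom (1.11), and ranged from -1.42 to 0.93 when a library was left out. Mcpt8 turned negative with the block (-1.60), with DESeq2 and the block (-1.39) and with limma-voom (-1.72), and ranged from -7.32 (without knockout 2, which leaves knockouts with 0 counts, so the size is no bound) to 1.45 when a library was left out. The cause of these changes was not tested. Library size only moved the median of all tested genes to 0.23 and upper-quartile scaling to -0.10. The medians of the receptor list and of the further mast cell and basophil list turned positive with library size only (0.20 and 0.23). In the reported fit, 7 of the 10 members did not pass the filter on low counts and were not tested.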
